A study of Mus musculus with 12 samples.

Results

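The genes described here are the 302 mouse protein-coding genes named *Zfp* and a number that had at least 240 RSEM expected counts in total over the 12 libraries. *Zfp423* and *Zfp467* were left out by the rule. The annotation held 383 genes of this name pattern in the count matrix. Of these, 79 were under 240 counts, and 27 of the 79 were at 0 counts in all libraries. The last gene inside the limit was *Zfp882* with a total of 240 counts, and the first outside it was *Zfp273* with 239.68. The genes were chosen by name and selected on their count total over all 12 libraries, so that they are expressed is not a finding. In 14 of the 302, at least 1 group had a mean under 20 counts. The libraries were bulk poly(A) RNA-Seq of W-20 cells, a mouse bone marrow stromal cell line, in 4 groups of 3 libraries. WT cells (the line as such) and Y428F cells were each exposed for 2 hours to vehicle (PBS) or to 50 nM PTH, parathyroid hormone. Y428F cells are a stable W-20 line that carries a plasmid for Flag-tagged YAP, the transcriptional coactivator that Hippo signaling restrains, with the Y428F substitution (a tyrosine changed to phenylalanine), and was selected with puromycin. The titles of the libraries name this substitution alone, and groups were taken from them, although the genotype tag of the 6 Y428F libraries reads WT. The study, where it describes the sequencing, names the line as carrying also a serine-to-alanine substitution in YAP at a site of the Hippo kinase LATS1, so Y428F stands here for the line as labelled. None of the libraries analysed came from W-20 cells given unmutated YAP, so effects of the mutation and of whatever else sets the lines apart cannot be told apart. Nothing in the labels says that the 3 libraries of a group came from separate cultures, so p-values measure the spread between these libraries. Totals ranged from 17127897 to 19057319 counts per library.

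The cells were checked against marker genes. Of 12 stromal markers, 11 had counts, and *Col1a1*, *Col1a2*, *Prrx1*, *Cxcl12* and *Eng* were all above 100 CPM, which here is the count per library total scaled by its TMM (trimmed mean of M-values) factor. *Thy1* was at 0 counts in all 12 libraries and *Nt5e* at no more than 2. The 4 osteoblast markers reached at most 7 counts in a library. *Pth1r*, the PTH receptor, had group means of only 0.142 to 0.405 CPM.

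Most genes named *Zfp* encode C2H2 zinc finger proteins. In a C2H2 finger, a pair of cysteines and a pair of histidines hold a zinc ion, and fingers in a row read DNA bases. Many carry a KRAB domain, which binds TRIM28 (KAP1) and through it SETDB1, the enzyme that trimethylates histone H3 lysine 9, so that retroelements and imprinted loci are silenced. A SCAN domain lets the proteins pair with each other. The same gene name also covers proteins that bind RNA, ribosomes or ubiquitin targets, among them *Zfp36* (tristetraprolin), which drives decay of AU-rich mRNAs.

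The coding DNA of 4 fingers shows what the name covers and where it is misleading. They are shown for *Zfp41*, which fell with PTH in both lines, for *Zfp469* and *Zfp362*, the furthest apart between lines with vehicle, and for *Zfp36*, whose finger is of the CCCH type. Capitals mark the codons of the zinc-binding residues. The first 3 are C2H2 fingers, of 63 bases in *Zfp41* and *Zfp362* and 66 bases in *Zfp469*, which has 1 more codon between its histidines, and the *Zfp36* finger has 3 cysteine codons and 1 histidine codon at other distances. The sequences are the first match in the canonical transcript of GENCODE vM39, on GRCm39, at chr15:75490314-75490376 (plus strand), chr8:122993748-122993813 (plus), chr4:128679924-128679986 (minus) and chr7:28077583-28077642 (minus), each inside a coding exon.
Zfp41: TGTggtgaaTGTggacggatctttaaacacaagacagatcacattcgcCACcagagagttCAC
Zfp469: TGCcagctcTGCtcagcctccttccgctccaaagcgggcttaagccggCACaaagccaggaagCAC
Zfp362: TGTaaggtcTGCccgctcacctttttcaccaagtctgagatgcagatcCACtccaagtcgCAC
Zfp36: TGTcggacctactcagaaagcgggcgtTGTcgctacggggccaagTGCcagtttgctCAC

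By a search of the translated canonical transcripts, 179 of the 302 genes (59.3%) carried a KRAB domain and 13 a SCAN domain, with 5 carrying both. The median number of C2H2 fingers was 12 in genes with KRAB and 7 in those without, and the most was 33. In 14 genes the finger pattern was not found, *Zfp36* among them. Levels per exon length, in CPM per kb, differed between these classes. The median over the 12 libraries was 1.14 in genes with KRAB and 3.401 in those without, against 5.24 in all 11919 genes with at least 240 counts. The most abundant per length were *Zfp706* at 24.8, *Zfp771* at 19.5, *Zfp503* at 19.4, *Zfp598*, an E3 ligase that marks collided ribosomes, at 18.9, and the RNA-binding *Zfp106* at 17.8 CPM per kb. None of these 5 carried a KRAB domain or was called with PTH in either line. *Zfp598* came closest in WT cells, with -0.19 on the log2 scale and no overlap between groups (adjusted p = 0.0729).

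Summed over the 302 genes, the level was 6584, 6852 and 6745 CPM in the WT vehicle libraries and 6334, 6434 and 6317 CPM with PTH. In Y428F cells it was 5994, 6107 and 6066 CPM with vehicle and 5660, 5816 and 5821 CPM with PTH. No 2 groups overlapped in these TMM-scaled values, and the order was WT vehicle, WT with PTH, Y428F vehicle and Y428F with PTH. As a percent of library totals alone, WT with PTH and Y428F vehicle changed places. Their libraries then ran from 0.6052% to 0.619% and from 0.6192% to 0.6339%. In TMM-scaled CPM, the 179 KRAB genes had the same order as all 302. Their means ± SD were 2172 ± 49.5, 2040 ± 51.5, 1837 ± 41.5 and 1689 ± 16.3 CPM (n = 3 each). In bulk libraries, fewer cells that express a gene and less RNA per cell cannot be told apart.

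**Figure D1:**
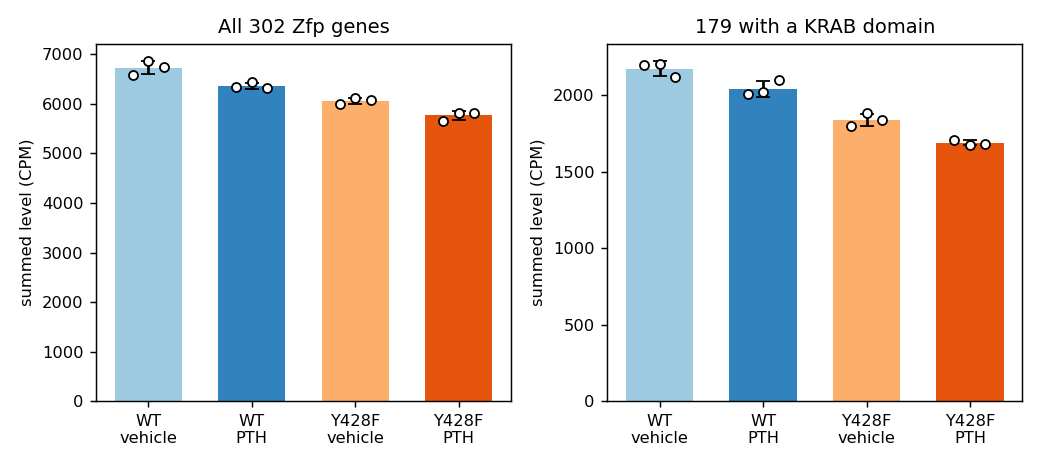
Summed level in CPM of all 302 Zfp genes (left) and of the 179 with a KRAB domain (right) in each group. Bars are means of 3 libraries, error bars the SD, and circles the libraries. With the TMM factors, the 4 groups step down in both panels from WT vehicle to Y428F with PTH without overlap. For all 302 genes, WT with PTH and Y428F vehicle change places on library totals alone.

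In WT cells, PTH lowered more *Zfp* genes than it raised. The test was the quasi-likelihood test of edgeR, with p adjusted by Benjamini-Hochberg over all 15583 genes tested and calls at an adjusted p under 0.05. Of the 302, 34 fell (11.3%) and 5 rose (1.66%). Of all genes tested, 11.8% were called, 4.91% lower and 6.88% higher, and of the 11894 with at least 240 counts, 6.35% fell and 8.85% rose. The median log2 fold change was -0.10 in *Zfp* genes and -0.01 in all genes tested, and 28.1% of *Zfp* genes had a value above 0. Of the 179 genes with KRAB, 12 fell (6.7%) and 3 rose. The share that fell was near that of all genes with at least 240 counts. Of the 123 without KRAB, 22 fell (17.9%) and 2 rose. The median log2 fold changes did not differ in this way, at -0.11 with KRAB and -0.08 without. Genes with KRAB had fewer counts, with a median total of 1326 against 5058, so the shares called are not alike in depth. Other genes of a like low level also leaned down. Of 4504 such genes, with at least 240 counts and at most 3.72 CPM per kb, the upper quartile of the *Zfp* genes, 7.97% fell and 4.71% rose, with a median of -0.09. At an adjusted p under 0.01 and a fold change beyond 0.3 on the log2 scale, 11 *Zfp* genes were lower and 1 higher, where 5.27% of all genes were called. Scaled on library totals alone, 49 *Zfp* genes fell and 2 rose, and among all genes the split went from 765 lower and 1072 higher to 1216 lower and 744 higher. The 34 that fell became 16 without vehicle replicate 2, 14 without vehicle replicate 3, and 13, 16 and 22 without PTH replicates 1, 2 and 3. The 5 that rose became 8 and 2 without vehicle replicates 1 and 3, and 2 and 1 without PTH replicates 1 and 2.

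Among the genes that fell, *Zfp41* stood at 32.4, 36.5 and 31.8 CPM with vehicle and at 19.5, 22.2 and 18.9 CPM with PTH. The PTH libraries were all below the vehicle libraries, and PTH over vehicle was -0.73 ± 0.09 on the log2 scale (SE; adjusted p = 0.000144). *Zfp839* fell from 10.2, 10.1 and 9.50 CPM to 7.08, 6.83 and 5.30 CPM (log2 -0.62 ± 0.13, adjusted p = 0.00846). Both calls held with each library left out in turn. *Zfp521*, a regulator of osteoblast and adipocyte precursors, fell from 5.77, 5.23 and 5.26 CPM to 2.83, 4.12 and 2.56 CPM. Its groups did not overlap, and its log2 fold change was -0.77 ± 0.20 (adjusted p = 0.022). The KRAB genes *Zfp647*, *Zfp54* and *Zfp689* fell by 0.87, 0.63 and 0.63 on the log2 scale (adjusted p = 0.0231, 0.034 and 0.0276). *Zfp54* had an adjusted p of 0.0573 in DESeq2's Wald test. These 4 calls were less firm. The adjusted p of *Zfp521* was 0.0547 to 0.11 without vehicle replicate 1 or 3 or PTH replicate 1 or 3. That of *Zfp647* was 0.0648 to 0.0708 without vehicle replicate 1 or 3 or PTH replicate 2 or 3. For *Zfp54* it was 0.065 to 0.138 without any library but vehicle replicate 3. For *Zfp689* it was 0.0643 to 0.134 without vehicle replicate 3 or any PTH library.

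The 5 genes that rose in WT cells were *Zfp951*, *Zfp948*, *Zfp800*, *Zfp335* and *Zfp52*. *Zfp948*, a KRAB gene, stood at 23.2, 20.3 and 19.5 CPM with vehicle and at 28.1, 28.1 and 30.1 CPM after PTH. The difference was 0.46 ± 0.09 on the log2 scale (adjusted p = 0.00402), and the call held with each library left out. *Zfp951* rose from 4.18, 4.04 and 3.86 CPM to 6.90, 6.46 and 5.53 CPM (log2 fold change 0.65 ± 0.16, adjusted p = 0.0161), and its adjusted p was 0.0599 to 0.0858 without vehicle replicate 3 or PTH replicate 1 or 2. *Zfp335* encodes a subunit of a histone H3 lysine 4 methyltransferase complex. It rose by 0.30 ± 0.08 on the log2 scale (adjusted p = 0.0302), and *Zfp800* by 0.32 ± 0.09 (adjusted p = 0.0292). Scaled on library totals, *Zfp335*, *Zfp800* and *Zfp52* had adjusted p of 0.0647, 0.0726 and 0.104. Each of these 3 calls was also lost with some libraries left out, *Zfp335* without vehicle replicate 2 or PTH replicate 1 or 2 (0.0628 to 0.105), *Zfp800* without vehicle replicate 3 or PTH replicate 1 or 2 (0.0894 to 0.114) and *Zfp52* without any but PTH replicate 1 (0.0575 to 0.0896). *Zfp52*, a KRAB gene, stood at 34.2, 37.0 and 36.2 CPM with vehicle and 40.3, 43.2 and 45.4 CPM with PTH (log2 0.27 ± 0.08, adjusted p = 0.0395, and 0.0504 with the replicate number as a block). An opposite-strand gene shares 42.4% of the exon bases of *Zfp335*, and whether the counting used strand is not given in the sources used here.

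In Y428F cells, PTH gave the same lean. Of the 302 genes, 52 fell (17.2%) and 11 rose (3.64%), where 12.4% of all 17691 genes tested were called, 5.78% lower and 6.61% higher. Of the genes with at least 240 counts, 8.36% fell and 9.69% rose. The median log2 fold change was -0.15 in *Zfp* genes, -0.01 in all genes and -0.07 in the 4528 other genes of low level, of which 9.96% fell and 4.48% rose. With KRAB, 24 of 179 fell (13.4%) and 1 rose, and without, 28 of 123 fell (22.8%) and 10 rose. The median log2 fold changes were -0.19 with KRAB and -0.12 without. With the stricter limits, 28 *Zfp* genes were lower and 5 higher, against 5.32% of all genes called. Among all genes, 1022 fell and 1170 rose, but 1445 fell and 888 rose when scaled on library totals, where 63 *Zfp* genes fell and 7 rose. The 11 that rose became 6 and 7 without vehicle replicates 1 and 2, and 6 without PTH replicate 3. Marker sums moved with PTH in these libraries as well, without overlap between the groups. The sum of the stromal markers went from 15480, 14410 and 14510 CPM to 10840, 13610 and 12880 CPM. *Cxcl12* of that list ran the other way, from 356.6, 360 and 357.5 CPM to 372.9, 373.4 and 368.6 CPM, without overlap. The 3 endothelial markers went from 7.50, 8.29 and 9.06 CPM to 6.05, 5.73 and 6.39 CPM, mostly *Cdh5*, and the 4 hematopoietic markers from 3.67, 3.03 and 3.495 CPM to 4.05, 3.93 and 4.30 CPM, mostly *Ptprc*. The adipocyte markers, nearly all *Fabp4*, went from 6.08, 6.52 and 7.48 CPM to 7.93, 8.65 and 8.15 CPM. In WT cells the stromal and hematopoietic sums of the PTH and vehicle groups overlapped, but the stromal sum is mostly *Col1a1* and *Col1a2*. *Pdgfra* went there from 77.75, 105.4 and 102.4 CPM to 62.08, 64.53 and 61.84 CPM and *Vcam1* from 149.8, 168.2 and 156.5 CPM to 137.8, 144.4 and 136.7 CPM, both without overlap. *Prrx1* of the same list ran the other way, from 134.6, 146.8 and 138.1 CPM to 149, 154.5 and 147.5 CPM, also without overlap. The part of these markers in the PTH results was not tested.

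*Zfp41* again fell, from 26.5, 22.8 and 25.8 CPM with vehicle to 14.81, 14.15 and 14.98 CPM with PTH (log2 -0.77 ± 0.09, adjusted p = 1.09e-05). *Zfp696* went from 4.77, 4.55 and 5.52 CPM to 2.44, 2.25 and 1.76 CPM, or -1.198 ± 0.20 on the log2 scale (adjusted p = 0.000467). The groups of both genes did not overlap. *Zfp964*, *Zfp691*, *Zfp839* and *Zfp974* fell by 0.97, 0.94, 0.84 and 0.84 on the log2 scale (adjusted p = 0.00277, 0.00723, 0.00177 and 0.0453). The adjusted p of *Zfp974* was 0.0706 to 0.151 without any library of the Y428F groups but vehicle replicate 3. In *Zfp696*, 21% of exon bases lie under an opposite-strand gene. Among genes that rose, *Zfp469* went from 24.5, 26.4 and 25.2 CPM to 32.2, 41.2 and 36.8 CPM (log2 0.53 ± 0.10, adjusted p = 0.000973). *Zfp131* rose from 25.6, 29.4 and 24.3 CPM to 36.8, 35.3 and 38.3 CPM (0.48 ± 0.09, adjusted p = 0.00132). *Zfp28*, *Zfp335* and *Zfp655* rose by 0.44, 0.41 and 0.39 on the log2 scale (adjusted p = 0.0293, 0.00214 and 0.00186), and that of *Zfp28* was 0.0721 to 0.162 without vehicle replicate 1 or 2 or PTH replicate 1.

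The responses of the lines contrast different libraries and can be set side by side, although the Y428F response came from the fit of all 12 libraries and so shared its estimate of the spread with WT cells. In both lines, 23 *Zfp* genes fell and 2 rose (*Zfp335* and *Zfp800*, the latter not called in Y428F cells with any 1 library left out, adjusted p 0.0601 to 0.123), and none was called in opposite directions. The 23 are 67.6% of those that fell in WT cells and 44.2% of those that fell in Y428F cells, where for all genes the shares were 59.2% and 44.3% (453 genes) and 1 gene was called in opposite directions. With the WT response also taken from the fit of all 12 libraries, 44 *Zfp* genes fell and 6 rose in WT cells, and 27 fell in both lines, 61.4% and 51.9% of those that fell in each, against 50.7% and 52.7% for all genes. The 23 became 11 and 9 without WT vehicle replicates 2 and 3 and 9 and 13 without WT PTH replicates 1 and 2, and were 17 to 23 without any other library. The 2 that rose became 4 without WT vehicle replicate 1 or WT PTH replicate 3. They became 0 without WT PTH replicate 1 or 2, and were 1 or 2 without any other library. The 23 include *Zfp41*, *Zfp324*, *Zfp839*, *Zfp239*, *Zfp687* and *Zfp217*, and 6 carry a KRAB domain and 3 a SCAN domain. The median log2 fold change of the 23 was -0.44 in WT and -0.62 in Y428F cells. Across the 302 genes, Spearman's rho between the log2 fold changes of the lines was 0.653, and across the 11894 genes with at least 240 counts tested in both it was 0.669. Genes are not independent replicates, and this is a description.

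**Figure D2:**
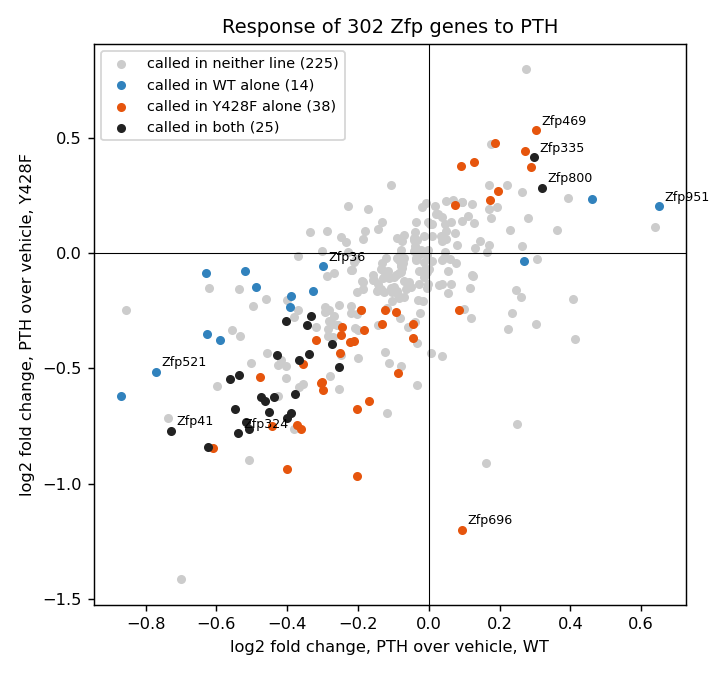
Log2 fold change with PTH in WT cells (horizontal) against that in Y428F cells (vertical), 1 point for each of 302 Zfp genes, coloured by the line in which it had an adjusted p under 0.05. Most called genes, 23 of the 25 called in both, lie in the lower left, and Zfp696 lies far below 0 in Y428F cells near 0 in WT cells.

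In the main edgeR fit, no *Zfp* gene was called for a different response to PTH between the lines (0 of 302). Of all genes tested 0.413% were called, 0.17% with the higher value in Y428F cells and 0.243% with the lower. With so few calls among all genes, the lack of calls is no result about *Zfp* genes. With the stricter limits it was 0.124%. At an unadjusted p under 0.05 there were 22 *Zfp* genes (7.28%), against 7.05% of all genes. The median difference in log2 fold change was -0.02. *Zfp696* came closest, with a log2 difference of -1.28 ± 0.28 (adjusted p = 0.0518). In WT cells it stood at 4.07, 3.53 and 3.49 CPM with vehicle and at 5.19, 3.26 and 3.32 CPM with PTH, so these groups overlapped. DESeq2's Wald test called it (adjusted p = 0.0241), as did the fits with no filter on low counts (0.00253), with at least 10 counts in every library (0.041), with the replicate number as a block (0.0401) and without WT PTH replicate 3 (0.0368). A call in 1 line and not in the other, as for *Zfp951* or *Zfp131*, is therefore not enough to say that their responses differ. For *Zfp131* the log2 difference was 0.30 ± 0.13 (edgeR, unadjusted p = 0.0364, adjusted p = 0.663).

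With vehicle, *Zfp* genes had lower levels in Y428F than in WT cells far more often than higher ones. Of the 302, 118 were lower (39.1%) and 23 higher (7.62%). Of all genes tested 45.1% were called and the sides were even, with 22.7% lower and 22.4% higher, and among genes with at least 240 counts 31% were lower and 28.8% higher. With the stricter limits, 70 *Zfp* genes were lower and 10 higher, and 31% of all genes were called. Scaled on library totals, 89 *Zfp* genes were lower and 31 higher, and among all genes 3552 were lower and 4565 higher. The median log2 fold change was -0.21 in *Zfp* genes and 0.01 in all genes. It was -0.01 in the other genes of low level, of which 27.1% were lower and 26.6% higher. In the 5606 other genes of at least 6460 exon bases, the median exon length of the *Zfp* genes, it was -0.02, with 32.9% lower and 28.5% higher. Genes with and without KRAB leaned the same way. Of 179 with KRAB, 68 were lower and 6 higher, with a median of -0.23, and of 123 without, 50 were lower and 17 higher, with a median of -0.15. By depth, of the 205 genes with a mean of 100 or more counts, 93 were lower and 21 higher, and of the other 97, 25 were lower and 2 higher, both with a median of -0.21. Of 99 KRAB genes with whole-number counts in every library, 43 were lower and 3 higher, and of 80 with a non-whole count, 25 were lower and 3 higher. Whole counts do not show that no read was shared between gene copies. By number of C2H2 fingers, 8 of 33 genes with 0 to 2 fingers were higher and 10 lower, 6 of 54 with 3 to 7 were higher and 20 lower, 5 of 118 with 8 to 12 were higher and 48 lower, and 4 of 97 with 13 or more were higher and 40 lower. Their medians were -0.04, -0.15, -0.23 and -0.24, while their median levels fell from 4.95 over 2.48 and 1.70 to 1.295 CPM per kb, so finger number and level moved together. Of the 13 SCAN genes, 6 were lower and 0 higher.

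**Figure D3:**
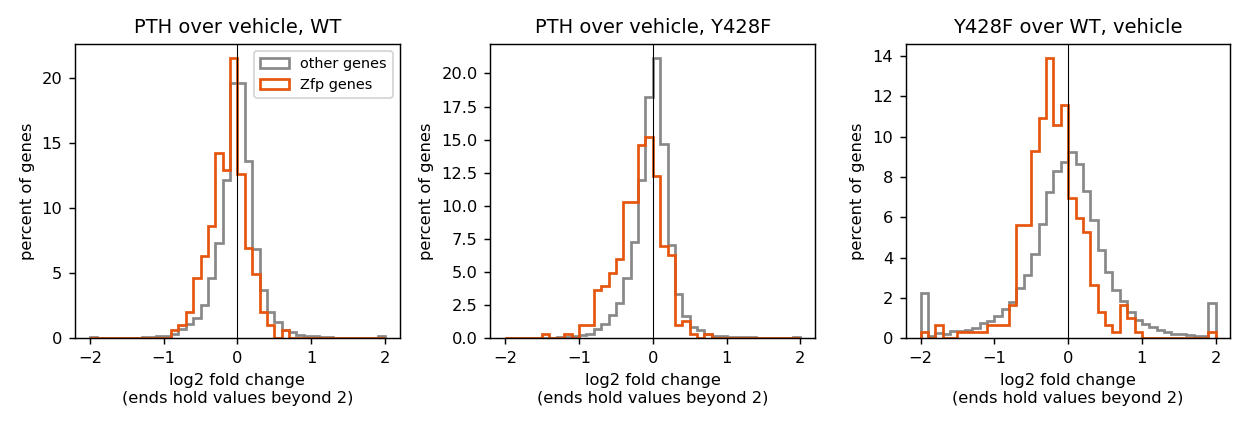
Percent of genes (vertical) by log2 fold change (horizontal, bins of 0.1, with values beyond 2 in the end bins) for the 302 Zfp genes and for all other genes with at least 240 counts. The Zfp curve sits left of the other genes in all 3 comparisons, furthest for Y428F over WT with vehicle, where its median is -0.21.

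*Zfp* genes lie in clusters, and 7 clusters of at least 8 of these genes, with gaps under 500 kb, held 87 of the 302. In the clusters 35 genes were lower (40.2%) and 2 higher, and outside them 83 of 215 were lower (38.6%) and 21 higher, where 31% of all genes with at least 240 counts were lower. The longest run, 22 genes from *Zfp160* to *Zfp213* on chromosome 17 (chr17:21229165-23783215, GRCm39), had 9 genes lower and 0 higher. The cluster of 15 from *Zfp84* to *Zfp146* on chromosome 7 had 5 lower and 1 higher, and that of 11 from *Zfp553* to *Zfp696* on the same chromosome had 6 lower and 0 higher. The cluster of 11 on chromosome 13 had 3 lower and that of 8 on chromosome 4 had 2 lower. Medians of the 7 clusters ran from -0.33 to -0.14. On 19 of 20 chromosomes the *Zfp* median was below that of the other genes with at least 4 CPM, chromosome 19 with 2 *Zfp* genes being the exception. On chromosome 7, which holds 77 of them, the medians were -0.22 and 0.01. On chromosome 6, 12 of 14 *Zfp* genes were lower, but the other genes there also had a median of -0.14. Of the 118 genes called lower and the 23 called higher, 117 and 23 also lay on that side of the median of their chromosome. No gene was tested again after centring, so these counts could only stay the same or shrink.

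**Figure D4:**
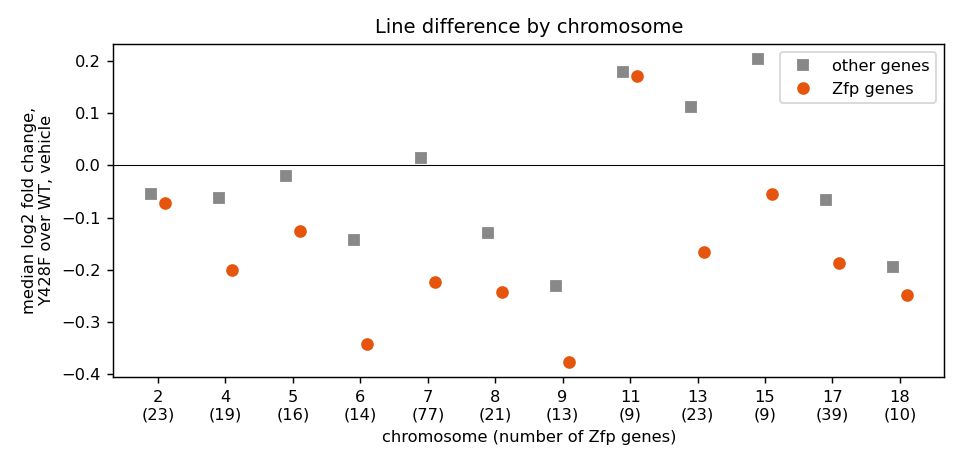
Median log2 fold change of Y428F over WT with vehicle, for Zfp genes (circles) and other genes of at least 4 CPM (squares), on the 12 chromosomes with 9 or more Zfp genes (number in brackets). The circle is below the square on all 12, by least on chromosome 11.

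The genes furthest apart, *Zfp469* and *Zfp362*, carry no KRAB domain. *Zfp469*, whose human counterpart is mutated in brittle cornea syndrome and is linked to collagen fibres, stood at 2.75, 1.93 and 2.63 CPM in WT and at 24.5, 26.4 and 25.2 CPM in Y428F cells with vehicle. Every Y428F library was far above every WT library, a 10.3-fold difference (log2 3.37 ± 0.13, adjusted p = 3.8e-14). *Zfp362* ran the other way, at 10.7, 10.3 and 9.34 CPM in WT and 1.10, 1.26 and 2.02 CPM in Y428F cells (log2 -2.79 ± 0.19, adjusted p = 1.17e-10). *Zfp239* was at 9.57, 8.59 and 9.55 CPM in WT and 4.16, 2.98 and 3.55 CPM in Y428F cells (log2 -1.38 ± 0.14, adjusted p = 1.03e-07). None of these groups overlapped. Between *Zfp362* and *Zfp239* in size came 3 KRAB genes with a mean under 2 CPM over the 6 vehicle libraries, named after their values were seen. *Zfp108*, *Zfp14* and *Zfp112* had log2 values of -1.80, -1.71 and -1.44 (adjusted p = 0.00112, 0.00378 and 0.000831), and these calls held with each library left out. Their count totals, 255.72, 250 and 327.69, were not far above the count limit. Their Y428F vehicle means were only 0.64, 0.67 and 0.96 CPM. Most of their counts came from WT libraries, so their passing the limit is tied to the higher WT level. Neither the adjusted p nor leaving out libraries addresses this.

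*Zfp608* stood at 22.0, 31.3 and 29.0 CPM in WT and 13.03, 11.98 and 11.09 CPM in Y428F cells, and *Zfp367* at 28.5, 28.2 and 28.1 CPM against 45.7, 47.9 and 50.9 CPM. Neither pair of groups overlapped. *Zfp608*, *Zfp846* and *Zfp870* were lower by log2 values of -1.19, -1.02 and -1.01 (adjusted p = 5.56e-08, 8.24e-06 and 9.76e-06), the last 2 being KRAB genes. *Zfp521* was higher in Y428F cells, at 8.98, 9.56 and 9.50 CPM (log2 0.79 ± 0.18, adjusted p = 0.000994). *Zfp707*, *Zfp367* and *Zfp1008* were higher by 0.95, 0.77 and 0.76 on the log2 scale (adjusted p = 9.05e-05, 7.92e-09 and 0.00425). Markers of other cells moved between the lines too. The 4 hematopoietic markers summed to 1.22, 1.54 and 1.29 CPM in WT and 3.67, 3.03 and 3.495 CPM in Y428F vehicle libraries, mostly *Ptprc*. The 3 endothelial markers summed to 1.01, 0.569 and 1.07 CPM against 7.50, 8.29 and 9.06 CPM, mostly *Cdh5*, with *Kdr* at 0 counts in all WT libraries. *Fabp4*, the most abundant of 3 adipocyte markers, was at 33.6, 23.4 and 23.7 CPM against 6.02, 6.42 and 7.26 CPM, with *Adipoq* at 0 counts in all libraries. The 12 stromal markers summed to 20890 to 24710 CPM against 14410 to 15480 CPM, most of it *Col1a1* and *Col1a2*. *Ly6a* of the same list ran the other way, at 149.7, 137.1 and 128.3 CPM against 325.9, 323 and 324.2 CPM. Their part in the line difference was not tested.

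**Figure D5:**
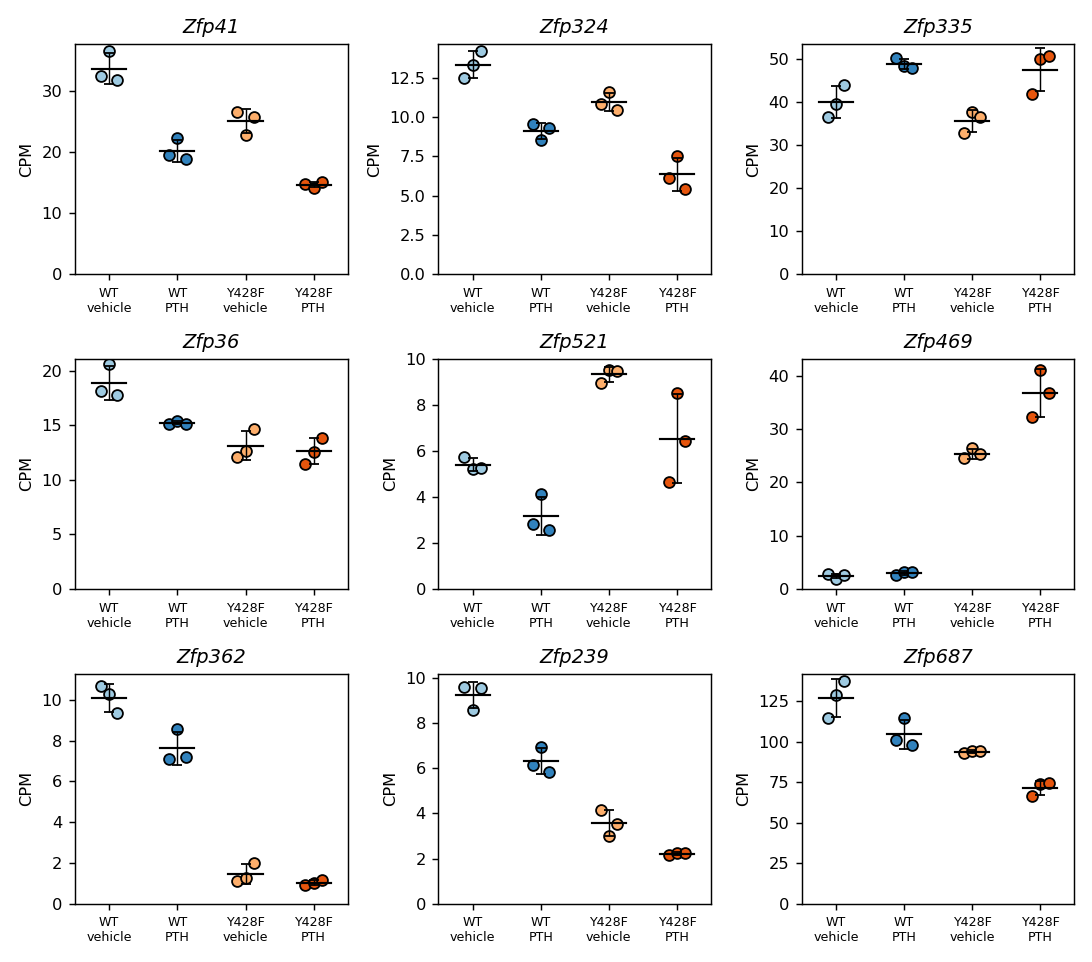
Level in CPM of 9 Zfp genes in the 12 libraries, with points for libraries, a line for the mean of 3 and error bars for the SD. Zfp41 and Zfp324 are lower with PTH in both lines, and Zfp469 and Zfp362 differ between the lines by far more than between treatments.

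With PTH in both lines, 120 *Zfp* genes were lower in Y428F cells (39.7%) and 25 higher (8.28%), where 45.7% of all genes were called, 23% lower and 22.8% higher. Among genes with at least 240 counts, 31.2% were lower and 29.1% higher. With the stricter limits, 80 *Zfp* genes were lower and 15 higher, and 31.6% of all genes were called. The median was -0.22 against 0.02 in all genes. Scaled on library totals, 100 were lower and 40 higher, so that the share on the lower side went from 82.8% to 71.4%. *Zfp469* stood at 2.59, 3.20 and 3.20 CPM in WT and 32.2, 41.2 and 36.8 CPM in Y428F cells (log2 3.61 ± 0.13, adjusted p = 8.58e-15). *Zfp362* was at 7.08, 8.55 and 7.22 CPM against 0.943, 1.01 and 1.16 CPM (log2 -2.87 ± 0.20, adjusted p = 3.16e-10). *Zfp1008*, *Zfp367*, *Zfp521* and *Zfp707* were higher by 1.197, 1.06, 1.05 and 0.91 on the log2 scale, and *Zfp608*, *Zfp239*, *Zfp964* and *Zfp870* lower by values of -1.58, -1.50, -1.17 and -1.06 (adjusted p of the 8 at most 0.000231). On 16 of 20 chromosomes the *Zfp* median was below that of other genes.

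Of 13 *Zfp* regulators of skeletal, stromal and fat cells, 3 fell with PTH in WT and 0 rose, and 5 fell and 1 rose in Y428F cells. These are 23.1% and 38.5% lower, where of all genes with at least 240 counts 6.35% and 8.36% were lower. The *Zfp* genes as a whole were nearer, with 11.3% and 17.2% of the 302 lower. Among those without KRAB, 17.9% and 22.8% were lower. Whether this list differs from other *Zfp* genes was not tested. *Zfp687*, mutated in a severe form of Paget disease of bone, stood at 115, 129 and 138 CPM with vehicle and 101, 115 and 98.4 CPM with PTH in WT cells (log2 -0.27 ± 0.08, adjusted p = 0.035). In Y428F cells it went from 93.4, 94.6 and 94.2 CPM to 66.3, 73.8 and 74.4 CPM (log2 -0.40 ± 0.07, adjusted p = 0.000893). An opposite-strand gene shares 23% of its exon bases. *Zfp217*, a corepressor-binding factor, fell by 0.25 and 0.49 on the log2 scale (adjusted p = 0.0451 and 0.000254). *Zfp516*, a brown fat regulator, *Zfp219*, a partner of SOX9 in cartilage, and *Zfp703* fell in Y428F cells by 0.33, 0.39 and 0.26 (adjusted p = 0.00191, 0.0115 and 0.0318), and had WT values of -0.18, -0.22 and -0.09 (adjusted p = 0.101, 0.147 and 0.588).

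The WT calls of *Zfp687* and *Zfp217* depended on single libraries. The adjusted p of *Zfp687* was 0.0971 to 0.18 without vehicle replicate 2 or 3 or PTH replicate 1 or 3, and that of *Zfp217* 0.0891 to 0.147 without any library but vehicle replicate 1. *Zfp217* also had 0.109 in DESeq2's Wald test and 0.0874 with the replicate number as a block. In Y428F cells, *Zfp219* had 0.0696 to 0.0931 without vehicle replicate 1 or PTH replicate 3, and *Zfp703* 0.0626 to 0.103 without any library but PTH replicate 2. *Zfp384* (Nmp4), known to limit the bone response to PTH, had log2 fold changes with PTH of 0.02 in WT and 0.17 in Y428F cells (adjusted p = 0.907 and 0.099). Between the lines with vehicle, 4 of the 13 were lower in Y428F cells (*Zfp516*, *Zfp687*, *Zfp503* and *Zfp384*, by -0.54, -0.43, -0.39 and -0.21 on the log2 scale) and 2 higher (*Zfp469* and *Zfp521*). The 30.8% lower is close to the 31% of all genes with at least 240 counts. *Zfp384* lost its call without vehicle replicate 2 of either line (0.0863 to 0.0877) and on library totals (0.064).

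Of 13 *Zfp* genes known for roles in RNA, ribosomes or ubiquitin, 2 fell and 0 rose with PTH in WT, and 0 fell and 2 rose in Y428F cells. Of all genes with at least 240 counts, 6.35% fell in WT and 9.69% rose in Y428F cells, against 15.4% of this list in each case. A further listed gene, *Zfp185*, was under the count limit. *Zfp36* went from 18.1, 20.6 and 17.8 CPM to 15.2, 15.4 and 15.1 CPM in WT cells (log2 -0.30 ± 0.09, adjusted p = 0.0461). This call was lost with any 1 of the 6 libraries left out (0.0517 to 0.227), in DESeq2's Wald test (0.111), with DESeq2's size factors (0.051) and with the replicate block (0.0767). In Y428F cells it stood at 12.1, 12.6 and 14.7 CPM with vehicle and 11.5, 12.5 and 13.9 CPM with PTH, groups that overlapped (adjusted p = 0.813). With vehicle it was lower in Y428F than in WT cells (log2 -0.52 ± 0.10, adjusted p = 0.000219).

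*Zfp346*, which binds double-stranded RNA, fell in WT by 0.33 (adjusted p = 0.0243, but 0.0648 to 0.136 without vehicle replicate 2 or 3 or PTH replicate 1 or 2). *Zfp207*, which carries BUB3 to kinetochores, and *Zfp622*, of ribosome assembly, rose in Y428F cells by 0.23 and 0.21 (adjusted p = 0.016 and 0.0457). Scaled on library totals they had 0.0551 and 0.116. Without vehicle replicate 1 or 2 or PTH replicate 3, *Zfp207* had 0.0724 to 0.0861, and without any library but PTH replicate 2, *Zfp622* had 0.0686 to 0.176. Between the lines with vehicle this list was mixed, with 5 higher and 4 lower in Y428F cells (38.5% and 30.8%, against 28.8% and 31% of all genes with at least 240 counts). *Zfp326*, a splicing factor, and *Zfp207* were higher by 0.47 and 0.37 (adjusted p = 3.72e-05 and 4.48e-05), and *Zfp622* and *Zfp638* lower by values of -0.32 and -0.27 (adjusted p = 0.000418 and 0.000776).

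Of 6 KRAB genes known for silencing retroelements or imprinted loci, none was called with PTH in either line by edgeR. Of all genes with at least 240 counts, 6.35% fell and 8.85% rose in WT, and 8.36% fell and 9.69% rose in Y428F cells. With only 6 genes, the lack of calls is no result about this list. The median log2 fold change was -0.07 in WT and -0.04 in Y428F cells. *Zfp57* and *Zfp445*, which keep imprints, had means of 44.3 and 64.6 CPM in WT vehicle libraries. Between the lines with vehicle, 1 of the 6 was lower in Y428F cells and 1 higher. That is 16.7% each, against 31% and 28.8% of all genes with at least 240 counts. *Zfp445* was lower in Y428F cells, at 53.4, 57.2 and 54.0 CPM against 62.73, 66.03 and 64.98 CPM in WT (log2 -0.24 ± 0.07, adjusted p = 0.00819). *Zfp568*, which silences a placental *Igf2* transcript, was higher, at 22.40, 25.23 and 23.04 CPM against 15.02, 15.98 and 16.15 CPM (log2 0.58 ± 0.09, adjusted p = 8.96e-06).

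Of 17 genes of the KRAB corepressor and heterochromatin machinery, 2 fell with PTH in WT (11.8%, against 6.35% of all genes with at least 240 counts), 3 in Y428F cells (17.6% against 8.36%), and 0 rose in either. *Setdb1* fell by 0.29 ± 0.06 and 0.21 ± 0.06 on the log2 scale (adjusted p = 0.0102 and 0.0254). Its adjusted p was 0.0575 to 0.0658 without WT vehicle replicate 2 or 3 or PTH replicate 1, and 0.0524 to 0.107 in Y428F cells without any library but PTH replicate 2. *Atf7ip*, its partner, fell by 0.51 ± 0.07 and 0.47 ± 0.08 (adjusted p = 0.000563 and 0.000285), from a mean of 200.1 to 139.7 CPM in WT, and kept both calls with each library left out. *Uhrf1* fell in Y428F cells by 0.19 (adjusted p = 0.0466, but 0.0551 with the replicate block and 0.0557 to 0.163 without any library but PTH replicate 2). *Trim28* had values of -0.02 and 0.02 (adjusted p = 0.905 and 0.871). Between the lines with vehicle, 9 of the 17 were higher and 3 lower in Y428F cells (52.9% and 17.6%, against 28.8% and 31%). *Setdb1* was lower, with means of 97.9 against 207 CPM (log2 -1.08 ± 0.06, adjusted p = 6.53e-12), as were *Atf7ip* (-0.37) and *Smarcad1* (-0.24). *Uhrf1*, *Chd3*, *Cbx5*, *Pphln1* and *Cbx1* were higher by 0.98, 0.90, 0.63, 0.63 and 0.55. *Trim28* had a log2 difference of 0.06 (adjusted p = 0.397).

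Related families were counted whole. Of 50 *Zbtb*, *Zkscan* and *Zscan* genes with the same count minimum, 8 fell and 5 rose with PTH in WT and 13 fell and 5 rose in Y428F cells, and 16 were lower and 6 higher in Y428F than in WT cells with vehicle. In percent, 16% fell and 10% rose in WT and 26% fell and 10% rose in Y428F cells, and 32% were lower and 12% higher between the lines, where for all genes with that minimum the lower shares were 6.35%, 8.36% and 31% and the higher shares 8.85%, 9.69% and 28.8%. Of the CCCH relatives of *Zfp36*, *Zfp36l1* was not called with PTH, and *Zfp36l2* rose in Y428F cells by 0.47 (adjusted p = 9.3e-05), with 0.20 in WT cells (adjusted p = 0.112).

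PTH acts in large part through cAMP and CREB, which binds the cAMP response element (CRE), and YAP through TEAD factors. Promoters from RefSeq (GRCm38.p6, 250 bases before to 50 after the start) were held for 243 of the 302 genes and searched on both strands for TGACGTCA, the full palindromic CRE, for TGACG, its core and so part of every full CRE, and for GGAATG, a TEAD motif. The CRE was in 9 of the 243 (3.7%), against 2.03% of all 27025 genes with a promoter. It was in 2 of 24 genes that fell and 1 of 5 that rose in WT cells. The core was in 32.9% of *Zfp* and 23.0% of all promoters, in 8 of 10 genes that rose and 12 of 37 that fell in Y428F cells, and in 2 of 5 and 8 of 24 in WT cells. GGAATG was in 15.6% of *Zfp* and 16.6% of all promoters, and in 15 of 99 genes that were lower in Y428F cells with vehicle (15.2%). With PTH, it was in 1 of 24 genes that fell and 0 of 5 that rose in WT cells. In Y428F cells it was in 6 of 37 that fell and 0 of 10 that rose. No difference between these shares was tested. The 27025 genes were not filtered by counts or gene type, whereas the *Zfp* genes are protein-coding and had at least 240 counts. The shares of all promoters are thus from an unlike set. The stretches of 30 bases around the CRE are shown for the 5 genes that were called with PTH in either line, with the CRE in capitals. All 5 were found by exact match on GRCm39, at chr2:164753718-164753747 (minus strand), chr13:64300274-64300303 (minus), chr17:28396097-28396126 (plus), chr9:20404046-20404075 (minus) and chr9:20432714-20432743 (minus). The CRE began 66, 105, 62, 22 and 17 bases before the RefSeq start.
Zfp335: tgggacctgcgTGACGTCAtgccacttccc
Zfp367: tgacaggacgcTGACGTCActgccgcgcgc
Zfp523: acccggcgtcgTGACGTCAtcacgccctcc
Zfp426: gcgagcggaagTGACGTCAtgcccgcgccc
Zfp266: ggaaatggaagTGACGTCAcggccagcccc

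The same 8 letters stood in genes that moved either way. *Zfp335* rose in both lines and *Zfp367* in Y428F cells by 0.38 (adjusted p = 0.000465). *Zfp523* fell in both, by 0.33 and 0.27 (adjusted p = 0.0142 and 0.0205), *Zfp426* in WT cells by 0.39 (adjusted p = 0.0238) and *Zfp266* in Y428F cells by 0.38 (adjusted p = 0.000412). The calls of *Zfp367* and *Zfp266* held with each library left out. The adjusted p of *Zfp523* was 0.0507 to 0.0707 in WT cells without vehicle replicate 2 or 3 or PTH replicate 1 or 2 and 0.0561 to 0.107 in Y428F cells without the same numbers. That of *Zfp426* was 0.0618 to 0.0963 without vehicle replicate 2 or 3 or PTH replicate 2 or 3, and 0.0574 in DESeq2's Wald test.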

How the data were processed

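Expected counts per gene were deposited for 12 libraries. The authors mapped reads with STAR 2.7.10b to GRCm39 with GENCODE basic annotation and summarized them with RSEM, without scaling for library size, and selected RNA by integrity number. RSEM splits reads shared between gene copies by estimation, so counts need not be whole, and 111 of the 302 genes had a non-whole count. Groups were taken from library titles, since the genotype tag of the Y428F libraries reads WT. Counts were rounded, and genes whose counts summed to 10 or more over the libraries of a fit were fitted by the quasi-likelihood method of edgeR 4.0.16 under R 4.3.3 (TMM factors, Benjamini-Hochberg over all genes tested). The PTH response of WT cells was fitted on the 6 WT libraries and the other comparisons on all 12. SEs are the log2 fold change divided by the root of F. CPM per kb used exon-union length. On simulated counts for the WT comparison (15583 genes), 98 of 100 genes changed by 1 on the log2 scale were called, and 70 of 100 changed by 0.5. Among the unchanged genes, 12 were called. The changed genes were drawn from all genes with at least 240 counts in the 6 WT libraries. The *Zfp* genes had a lower median level (1.66 against 5.24 CPM per kb), so these rates need not hold for them.

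Symbols, positions and coding sequences came from GENCODE vM39 (56236 of 56980 identifiers matched). KRAB and SCAN domains were scored by weight matrices built from 143 and 28 seed proteins, and 8 proteins lay within 10 units of the KRAB limit. Named genes were up to 5 per direction and comparison by log2 fold change among genes past the threshold with at least 2 CPM and no overlap between groups, the 5 most abundant per length, the genes at the count limit, and called members of the role and corepressor lists. *Zfp324*, *Zfp108*, *Zfp14*, *Zfp112*, the genes with a full CRE and the low-level and long-gene backgrounds were chosen after values were seen. The genes and lists were chosen with earlier results of these data known. Alternatives were DESeq2 1.42.0, its size factors, library totals, other count filters, a replicate block, a stricter threshold and each library left out. Chromosome centring was applied to the called genes without a new test.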

Additional observations from a re-analysis of the deposited data

How the results depend on the processing

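No called log2 fold change of a named gene changed sign under the alternatives run, and in each comparison with calls more *Zfp* genes were lower than higher. Among all genes, the side with more calls with PTH turned from higher to lower on library totals in both lines, and between the lines from about even (4020 lower and 3966 higher with vehicle, 4067 and 4026 with PTH) to mostly higher (3552 and 4565, 3538 and 4761). With the stricter limits (0.01 for the adjusted p, 0.3 for log2), 11 *Zfp* genes fell and 1 rose in WT cells with PTH, 28 fell and 5 rose in Y428F cells, 70 were lower and 10 higher in Y428F with vehicle, and 15 were higher with PTH. Library totals gave 2 that rose in WT, 7 that rose in Y428F and 40 higher in Y428F with PTH. With no filter on low counts 8 rose in WT. For the difference in response, 1 gene (*Zfp696*) was called by DESeq2's Wald test, with no filter, with at least 10 counts in every library and with the replicate block. Leaving out 1 library gave 1 to 8 that rose and 13 to 28 that fell in WT, 6 to 11 that rose and 36 to 45 that fell in Y428F, and 0 to 1 with a different response. Same-numbered libraries did not deviate together (mean r = 0.0064 over 18 pairs), so the replicate numbers were not taken as pairs. With the replicate block, 33 fell and 4 rose in WT and 55 fell and 12 rose in Y428F. A limit of 120 or 480 counts in total would have given 318 or 277 genes. Of the 97 genes under a mean of 100 counts, 6 fell and 1 rose in WT cells (median -0.21), and of the 205 above it 28 fell and 4 rose (median -0.08). In Y428F cells 12 fell and 0 rose (median -0.32) against 40 and 11 (median -0.09).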
